A study of Bos taurus with 9 samples.

Results

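The genes described here fold, modify and sort proteins in the endoplasmic reticulum (ER), or belong to the unfolded protein response, which adjusts that machinery to its load. They are 46 of 54 listed symbols, namely those with a probe set annotated to that symbol alone on an Affymetrix bovine array, which holds 9155 genes with such a probe set. For each gene the brightest of its single-gene probe sets, by the mean of the 9 arrays, was used, and all 46 passed the filter on dim probe sets. The other 8 symbols, PDIA6, ERP44, ATF6, ERN1, XBP1, WFS1, PPP1R15B and EDEM1, were not analysed here. The stress sensors IRE1 (ERN1) and ATF6 and the transcription factor XBP1 are therefore seen only through their known target genes.

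Secreted and membrane proteins enter the ER through the SEC61 channel, are folded there by chaperones around HSPA5 (BiP) and by the lectins calnexin and calreticulin, and receive disulfide bonds from protein disulfide isomerases. Proteins that fail to fold are drawn back into the cytosol and degraded. When unfolded proteins accumulate, the sensors ERN1, ATF6 and EIF2AK3 (PERK) raise the transcription of chaperone and degradation genes, and PERK also slows translation and favours the factors ATF4 and DDIT3 (CHOP). Cells of the nucleus pulposus, the gel-like core of the intervertebral disc, secrete collagens and proteoglycans, so the ER carries much of their output, and in the disc they live at a raised and varying osmolality.

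The series holds cultured nucleus pulposus cells of caudal discs from young calves in 3 groups of 3 arrays. Control cells were untreated, salt 5 h cells had salt added to 500 mOsm/kg for 5 h, and salt 24 h cells had the same for 24 h. All grew in DMEM medium with serum, and the labels give the control no time point and name biological replicates 1 to 3 without saying whether they came from separate animals. P-values therefore measure the spread between these cultures, changes with salt cannot be told apart from changes with time in culture, and both time points are compared with the same 3 control arrays.

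The values are linear intensities, and changes are differences of log2(intensity + 16) in limma fits over 18012 probe sets. A gene is said to be called, or to have risen or fallen, where its Benjamini-Hochberg adjusted p was under 0.05. This was read in a fit without and in a fit with the replicate number as a block, and every adjusted p below comes from these limma fits. The ± after a log2 difference is the SE of the fit without the block, also beside an adjusted p with the block. All fits that leave out 1 array, and the other processing alternatives, were run without the block. The 9 arrays had median intensities between 67.1 and 84.5. The share of calls over all probe sets that were higher was 49.7% at 24 h, 48.3% at 5 h and 56.6% between 24 h and 5 h, and 37.8%, 59.6% and 33.4% when each array was centred on its median, which moves the last comparison by 0.15 on the log2 scale. The spiked control BioC read 611.3 to 719.4 on the 3 arrays numbered 3, and 1066.7 to 1273.6 on the other 6. The log2 ratio of 3' to 5' actin probe sets, a sign of RNA integrity, averaged 3.84 ± 0.16 at 24 h, against 3.12 ± 0.24 in control cells (SD, n = 3 each), with no overlap. At 5 h the actin ratio averaged 3.07 ± 0.36 (SD, n = 3), also below all 24 h arrays. The same ratio for GAPDH averaged 0.025 ± 0.016 at 24 h, against -0.084 ± 0.092 in control cells, also with no overlap. At 5 h the GAPDH ratio averaged 0.0063 ± 0.045 and overlapped 24 h. Over the 9 arrays it stayed between -0.18 and 0.057. The part of both ratios in the results was not tested. Of 12 nucleus pulposus and chondrocyte markers, 7 were matched and 5 passed the filter, and the sum over the matched markers ranged over 1672.1 to 4396.5 at 24 h, against 632.2 to 2614.3 in control cells. Aggrecan (ACAN) made up most of that sum, at 1505.6 to 4025.9 at 24 h, against 497.4 to 2139.4 in control cells. It (1.35) and COMP (0.39) were called higher at 24 h with the block only, COL2A1 (-0.39) and KRT18 (-0.16) were not called, and KRT8 and KRT19 fell below the filter. Macrophage markers, 5 of 7 past the filter, summed to 390.1 to 434.8 at 24 h, against 193.5 to 204.0 in control cells, with CD14 called higher and TYROBP near 0 on each array. CD14 made up most of the 24 h sum, at 232.7 to 329.8, against 83.4 to 104.1 in control cells. PTPRC (0.50), CD68 (0.031), CSF1R (0.10) and AIF1 (0.29) were not called at 24 h in either fit. Skeletal muscle markers, 4 of 5 past the filter, summed to 2194.6 to 3553.9 at 24 h, against 1048.0 to 1273.4 in control cells, with CKM called higher, MYL1 called lower, ACTA1 (-0.60) called lower with the block only and MYH1 near 0. Of fibroblast markers THY1 (0.74) was called higher, and COL1A1 (-0.32) and COL1A2 (-0.22) were called lower with the block only. The endothelial marker TEK (0.49) was called higher with the block only, at 21.5 to 42.9, against 13 to 22.1 in control cells. PECAM1 (0.053), CDH5 (-0.00057) and KDR (-0.36) were not called in either fit, and VWF fell below the filter. No erythroid marker was called in either fit. At 5 h no marker was called without the block, while with it CKM (1.57) and CSF1R (0.67) were higher and COL1A2 (-0.27) lower. The part of all these markers in the results was not tested. In such bulk samples, fewer cells of a type and less RNA per cell cannot be told apart.

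After 24 h of salt, several ER chaperone and translocation genes were lower than in control cells. Of the 46 genes, 5 (10.9%) fell and 0 rose, while 4.32% of all probe sets were called lower and 4.28% higher, 8.61% in all. The 5 were MANF, SDF2L1, SSR3, CANX and SEC61G. At an unadjusted p under 0.05, 16 genes were lower and 0 higher. With the replicate block 21 (45.7%) fell and 1 (2.17%), PDIA3, rose. In that fit 35.8% of all probe sets were called, 17.5% lower and 18.3% higher. The median difference of the 46 genes was -0.23, and the median of all probe sets was 0.023. In 27 of the 46 genes (58.7%) the 24 h array lay below the control array of the same number in 3 of 3 pairs, as did 29.5% of all probe sets, and in 5 it lay above, as did 33.3%. In 17 of the 46 genes all 24 h arrays lay below all control arrays, against 13.5% of all probe sets, and in 0 genes all lay above, against 13.9%. The count of 5 came to 3 without control replicate 2 or salt 5 h replicate 1, and to 2 without control replicate 3, salt 24 h replicate 1 or salt 24 h replicate 3. Over all probe sets, leaving out 1 array gave 138 to 781 lower and 161 to 752 higher, in place of 779 and 771, with the lowest counts of lower calls without salt 24 h replicate 1 (138) and control replicate 2 (149). The count of 5 also came to 2, MANF and SSR3, when the 3 arrays numbered 3 were left out, an alternative chosen after seeing the data.

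**Figure D1:**
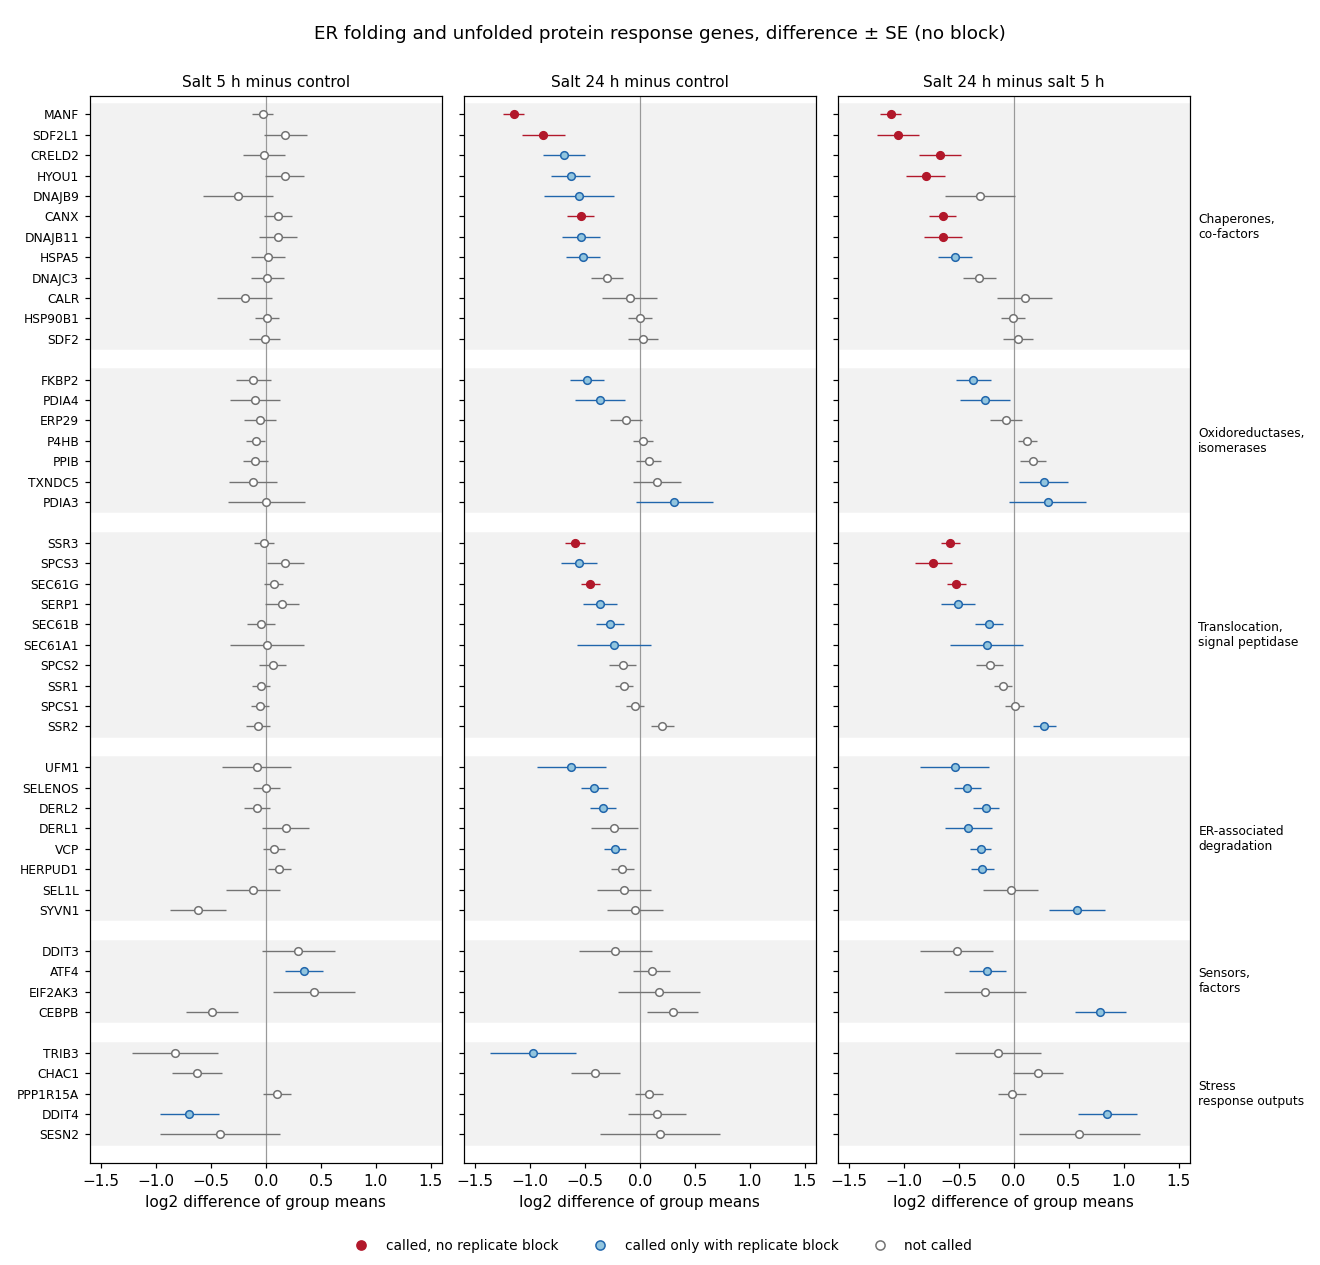
Log2 difference of group means with its SE from the fit without a block (x axis) for each of the 46 genes (rows, grouped by role), in the 3 comparisons; red points were called without the block, blue points only with it. In the middle panel, salt 24 h minus control, the 5 red points all lie left of 0, between MANF at -1.15 and SEC61G at -0.45.

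MANF and SDF2L1, both of the chaperone group, had the largest falls among the 5 called genes. Of the 12 genes of that group, 3 (25%) fell (MANF, SDF2L1 and CANX) without the block and 8 (66.7%) with it, against 4.32% and 17.5% of all probe sets. Of the 12, 10 lay below 0, while 52.8% of all probe sets lay above 0, and the median was -0.53. MANF, an ER-resident protein that binds HSPA5 and is secreted under stress, read 5439.7, 5379.3 and 5723.1 in the control cells, 5149.6, 5246.6 and 5835.8 in the salt 5 h cells and 2701.4, 2493.2 and 2274.5 in the salt 24 h cells. The control and 5 h arrays overlapped and the 24 h arrays all lay below them. Its mean intensity was 2489.7 ± 213.5 at 24 h, against 5514.0 ± 183.6 in control cells (SD, n = 3 each), a ratio of 0.452 and a log2 difference of -1.15 ± 0.094 (SE; limma adjusted p = 0.0016).

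SDF2L1, which works with DNAJB11 and HSPA5 to keep unfolded proteins soluble, read 634.2, 567.9 and 868.0 in the control cells, 791.8, 645.8 and 890.3 in the salt 5 h cells and 391.1, 333.3 and 365.8 in the salt 24 h cells. All 24 h arrays were below all others, and replicate 3 was the highest in the control and 5 h groups. The difference from control was -0.88 ± 0.19 (adjusted p = 0.029). It was not called without control replicate 2 or 3, 5 h replicate 1 or any of the 24 h replicates (adjusted p = 0.058 to 0.085). Its close relative SDF2 differed by 0.029 ± 0.14 at 24 h and overlapped between the groups.

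CANX, calnexin, the membrane lectin that holds newly made glycoproteins, read 3492.2, 3506.9 and 4200.0 in the control cells, 3696.6, 3736.3 and 4667.3 in the salt 5 h cells and 2414.2, 2742.6 and 2529.2 in the salt 24 h cells. The 24 h arrays were again below all others. The difference at 24 h was -0.54 ± 0.12 (adjusted p = 0.034), and the call was lost in 6 of the 9 fits that leave out 1 array (without control 2 or 3, 5 h replicate 1, or any 24 h replicate; adjusted p = 0.055 to 0.13). A dimmer probe set differed by -0.37 (adjusted p = 0.82, with block 0.066), and the mean of its probe sets differed by -0.28 and was not called (0.55). Its soluble counterpart calreticulin, CALR, differed by -0.091 ± 0.25 with overlapping groups.

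HSPA5, the central ER chaperone of the Hsp70 type, read 9913.9, 9292.2 and 7862.0 in the control cells, 8209.5, 9876.1 and 9319.6 in the salt 5 h cells and 6086.2, 7864.4 and 5184.6 in the salt 24 h cells. The highest 24 h array, replicate 2, overlapped the lowest control array, replicate 3, so the groups were not separate. The difference was -0.51 ± 0.16 at 24 h (adjusted p = 0.079, and 0.0059 with the block). Its other 2 probe sets differed by -0.67 and -0.79, with adjusted p = 0.57 and 0.80, and 0.0045 and 0.0067 with the block. HSP90B1, the Hsp90 of the ER, differed by 0.0028 ± 0.11 and read 6348.4 ± 752.6 at 24 h, against 6327.7 ± 662.8 in control cells.

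The next chaperones and stress-induced ER proteins were called at 24 h with the block only. HYOU1, which exchanges nucleotide on HSPA5, read 730.2, 778.8 and 916.8 in the control cells, 789.5, 917.8 and 1032.3 in the salt 5 h cells and 439.6, 632.7 and 492.3 in the salt 24 h cells. The 24 h arrays lay below the control arrays, with replicate 2 the nearest to them, and the difference was -0.63 ± 0.18 (adjusted p = 0.064, with block 0.0036). CRELD2, an ER protein induced by ER stress, read 1462.0, 1095.4 and 1050.6 in the control cells, 1343.8, 1165.8 and 1035.4 in the salt 5 h cells and 893.2, 722.5 and 609.9 in the salt 24 h cells. No 24 h array reached a control array, replicate 1 was highest in every group, and the difference was -0.69 ± 0.19 (adjusted p = 0.06, with block 0.00047).

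DNAJB11, a J-domain co-chaperone that hands substrates to HSPA5, read 550.8, 442.2 and 471.7 in the control cells, 592.1, 478.9 and 514.0 in the salt 5 h cells and 348.2, 378.4 and 276.2 in the salt 24 h cells. The 24 h arrays did not overlap the control arrays, and the difference was -0.53 ± 0.17 (adjusted p = 0.094, with block 0.0093). DNAJB9, another J-domain protein and a known XBP1 target, differed by -0.56 ± 0.32 with overlapping groups (adjusted p = 0.35, with block 0.012). DNAJC3, a co-chaperone also known as P58IPK, differed by -0.30 ± 0.15 and was not called in either fit (adjusted p = 0.28 and 0.071).

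**Figure D2:**
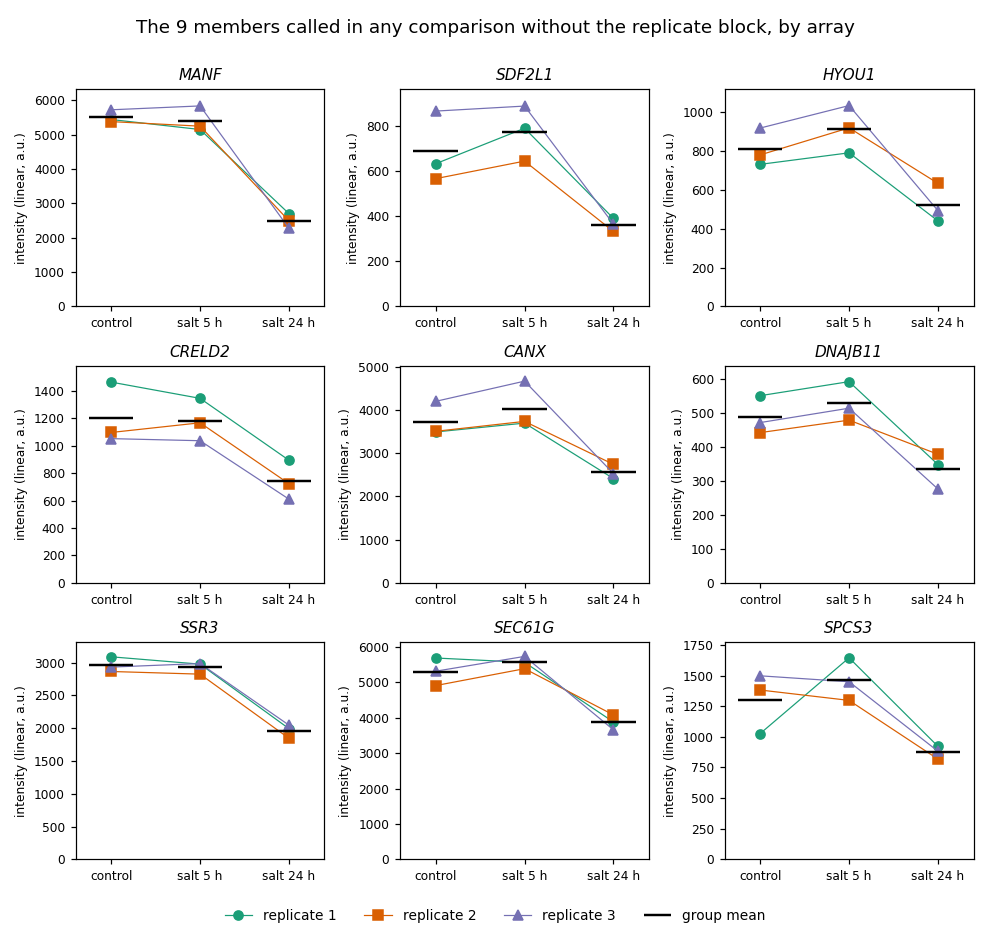
Linear intensity (y axis, from 0, scaled per gene) on each array of the 9 genes called in any comparison without the block; symbols and thin lines join arrays of the same replicate number, and black bars are group means. In every panel the 3 salt 24 h points lie below the control and salt 5 h points of that gene, as for MANF at 2274.5 to 2701.4. The genes were picked by tests on these same arrays. Over all probe sets, the 24 h arrays all lay below control in 13.5% and below 5 h in 14.3%.

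Some translocation genes were also lower at 24 h. Of 10, 2 (20%) fell (SSR3 and SEC61G) without the block and 6 (60%) with it, against 4.32% and 17.5% of all probe sets. Of the 10, 9 lay below 0, while 52.8% of all probe sets lay above 0, and the median was -0.25. SSR3, a subunit of the translocon-associated protein complex, read 3089.8, 2865.9 and 2933.1 in the control cells, 2977.9, 2825.5 and 2986.6 in the salt 5 h cells and 1994.3, 1847.1 and 2047.8 in the salt 24 h cells. Arrays within each group were close, and the 24 h arrays lay apart below the rest. The difference was -0.59 ± 0.089 (adjusted p = 0.009), while its dimmer probe set differed by -0.26 (adjusted p = 0.66, with block 0.048).

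Of the same complex, SSR1 differed by -0.14 ± 0.083 and SSR2 by 0.21 ± 0.11, and neither was called at 24 h in either fit. SEC61G, the smallest subunit of the SEC61 channel, read 5691.8, 4912.5 and 5319.0 in the control cells, 5568.1, 5390.0 and 5736.9 in the salt 5 h cells and 3883.2, 4082.5 and 3661.9 in the salt 24 h cells. The 24 h arrays did not reach the lowest control array. It differed by -0.45 ± 0.085 (adjusted p = 0.018), and was not called without control replicate 3 (0.063), 24 h replicate 1 (0.072) or 24 h replicate 3 (0.056).

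The channel's other subunits, SEC61B at -0.27 ± 0.13 and the pore-forming SEC61A1 at -0.24 ± 0.33, were called with the block only (with block SE 0.065 and 0.077, adjusted p = 0.0098 and 0.038). So was SERP1, a stress-induced protein bound to the channel, at -0.36 ± 0.15 (with block 0.0084). SPCS3, a subunit of the signal peptidase that removes leader peptides, read 1026.7, 1381.9 and 1497.7 in the control cells, 1644.7, 1297.2 and 1449.4 in the salt 5 h cells and 922.1, 818.1 and 882.4 in the salt 24 h cells. Control replicate 1 was the lowest of the control and 5 h arrays and still lay above the 24 h arrays. Its difference was -0.55 ± 0.16 (adjusted p = 0.076, with block 0.014). The signal peptidase subunits SPCS1 and SPCS2 differed by -0.043 ± 0.085 and -0.16 ± 0.12.

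The disulfide isomerases and prolyl isomerases differed from control in both directions. Of 7, 0 were called by limma without the block (1 lower and 0 higher at an unadjusted p under 0.05), and with it FKBP2 and PDIA4 fell and PDIA3 rose, with a median of 0.031 over the 7. The calls with the block are 28.6% lower and 14.3% higher, against 17.5% and 18.3% of all probe sets. FKBP2, a prolyl isomerase, averaged 1276.0 ± 150.4 at 24 h, against 1791.8 ± 287.8 in control cells, without overlap (difference -0.48 ± 0.16, adjusted p = 0.1, with block 0.0022). Its other, dim probe set differed by -0.047 (with block adjusted p = 0.84). PDIA4, an isomerase induced by ER stress, averaged 1086.4 ± 219.2 at 24 h, against 1398.6 ± 291.8 in control cells, with overlap (difference -0.36 ± 0.23, with block adjusted p = 0.014). A second PDIA4 probe set differed by 0.013.

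PDIA3, the isomerase that partners calnexin and calreticulin, read 4394.2, 2779.8 and 5940.4 in the control cells, 3755.8, 3097.8 and 6292.8 in the salt 5 h cells and 4856.5, 3913.4 and 7356.4 in the salt 24 h cells. The replicates differed more from each other than the groups did, replicate 3 being highest and replicate 2 lowest in each group. In each of the 3 pairs the 24 h array was above its control, the difference being 0.31 ± 0.35 (adjusted p = 0.7, with block 0.017). With the block the SE was 0.085. The collagen-modifying P4HB and the cyclophilin PPIB differed by 0.031 ± 0.087 and 0.083 ± 0.12, and ERP29 and TXNDC5 by -0.12 ± 0.14 and 0.16 ± 0.22, with all 4 overlapping control.

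Genes of ER-associated degradation lay below control at 24 h in 8 of 8 cases, with a median of -0.23. Of all probe sets 52.8% lay above control. By limma 0 were called without the block (3 lower and 0 higher at an unadjusted p under 0.05), where 4.32% of all probe sets were called lower. With the block 4 (50%) fell, as did 17.5% of all probe sets. SELENOS, a selenoprotein of the retrotranslocation complex, averaged 1184.7 ± 83.4 at 24 h, against 1585.6 ± 131.4 in control cells, without overlap (difference -0.41 ± 0.12, with block adjusted p = 0.0047). DERL2, a membrane component of the same complex, differed by -0.33 ± 0.12 and VCP, the ATPase that extracts substrates, by -0.23 ± 0.10 (with block adjusted p = 0.018 and 0.041), and neither overlapped control.

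UFM1, a ubiquitin-like modifier used at the ER, differed by -0.62 ± 0.31 (adjusted p = 0.28, with block 0.01), and its other probe set by -0.72 (adjusted p = 0.054, with block 0.0051). HERPUD1, a stress-induced scaffold of the degradation complex, read 2192.1, 1918.1 and 1844.4 in the control cells, 2058.2, 2228.0 and 2187.3 in the salt 5 h cells and 1836.6, 1771.5 and 1702.6 in the salt 24 h cells. The 24 h arrays lay just below the control arrays, and the difference of -0.16 ± 0.10 was not called in either fit (adjusted p = 0.42 and 0.19). DERL1 and the ligase subunit SEL1L differed by -0.23 ± 0.22 and -0.14 ± 0.25, and the ligase SYVN1 by -0.041 ± 0.26.

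**Figure D3:**
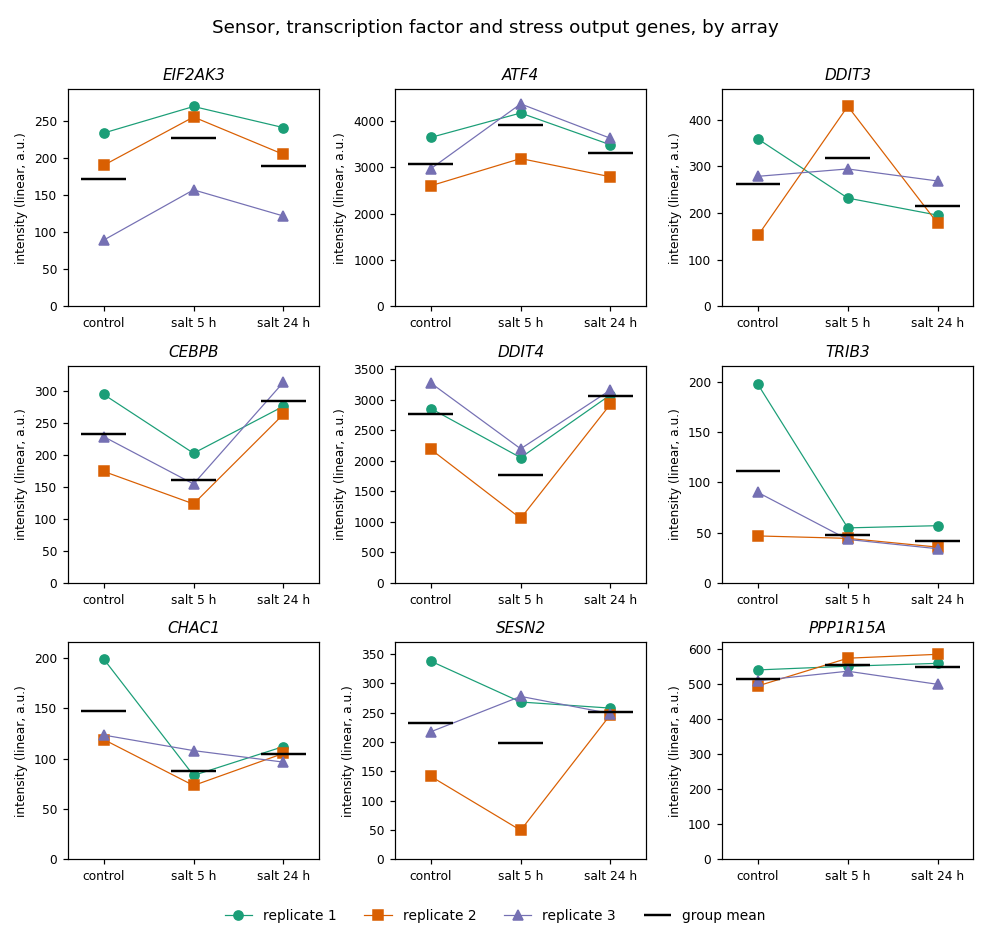
Linear intensity (y axis, from 0, scaled per gene) on each array of the 4 measured sensor and transcription factor genes and the 5 measured outputs; symbols and thin lines join arrays of the same replicate number, and black bars are group means. DDIT4 dips at 5 h in each of the 3 replicates (1055.8 to 2194.8), while DDIT3 and SESN2 do not move the same way in the 3 replicates.

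The sensor and transcription factor genes and the outputs of the integrated stress response did not share a direction at 24 h. Of the 4 sensor and factor genes and the 5 outputs, 0 were called by limma without the block (1 lower and 0 higher at an unadjusted p under 0.05), their medians were 0.14 and 0.085, and with the block TRIB3 fell. That is 20% of the 5 outputs, near the 17.5% of all probe sets called lower with the block. ATF4, the main factor translated when PERK is active, read 3644.7, 2602.8 and 2970.3 in the control cells, 4170.6, 3188.8 and 4367.2 in the salt 5 h cells and 3485.3, 2795.6 and 3625.6 in the salt 24 h cells. The groups overlapped, and its 24 h difference was 0.11 ± 0.17. DDIT3, the pro-apoptotic factor CHOP, read 358.4, 151.9 and 278.5 in the control cells, 231.9, 428.4 and 294.3 in the salt 5 h cells and 195.4, 178.0 and 268.5 in the salt 24 h cells. Replicate 2 was the lowest control array and the highest of all at 5 h, and the 24 h difference was -0.22 ± 0.33 (adjusted p = 0.79).

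TRIB3, a pseudokinase induced by ATF4 and CHOP, read 197.2, 46.7 and 89.9 in the control cells, 54.7, 44.3 and 43.2 in the salt 5 h cells and 56.9, 35.6 and 34.0 in the salt 24 h cells. Control replicate 1 stood far above the rest, and control replicate 2 lay within the range of the salt arrays. The difference at 24 h was -0.97 ± 0.39 (adjusted p = 0.17, with block 0.012). CHAC1, a glutathione-degrading enzyme and ATF4 target, read 198.7, 118.9 and 123.3 in the control cells, 83.3, 73.3 and 107.9 in the salt 5 h cells and 111.9, 105.1 and 96.5 in the salt 24 h cells. All salt arrays lay below all control arrays, and neither difference, -0.63 ± 0.22 at 5 h and -0.40 ± 0.22 at 24 h, was called in either fit.

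PPP1R15A (GADD34), which helps to restore translation, differed by 0.085 ± 0.13 at 24 h. EIF2AK3, the sensor PERK, differed by 0.43 ± 0.37 at 5 h and 0.18 ± 0.37 at 24 h, with its 3 replicates at different levels in every group. SESN2, a stress-induced regulator of nutrient signalling, ranged from 49.6 to 277.9 within the salt 5 h cells, the widest spread of the 46 genes in that group (SD 1.24 on the log2 scale).

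After 5 h of salt, 0 of the 46 genes were called without the block in limma, where 0.483% of all probe sets were called in either direction, 0.25% lower and 0.233% higher. At an unadjusted p under 0.05 there were 3 genes lower and 0 higher. With the block ATF4 rose and DDIT4 fell, each 2.17% of the 46 genes. In that fit 5.86% of all probe sets were called, 2.45% higher and 3.41% lower, so neither share exceeded that of all probe sets. The median difference was -0.017 over the 46 genes and -0.030 over all probe sets. The 5 h arrays lay all below control in 2 genes, SYVN1 and CHAC1, and all above in 0, against 6.6% and 4.04% of all probe sets. In 3 of 3 pairs 8 genes were higher and 7 lower, as were 17.5% and 23.1% of all probe sets.

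ATF4 differed by 0.35 ± 0.17 at 5 h (adjusted p = 0.8, with block 0.045), and each 5 h array was above the control array of its number. DDIT4 (REDD1), an inhibitor of mTOR signalling that ATF4 and other factors induce, read 2853.8, 2185.6 and 3270.7 in the control cells, 2049.6, 1055.8 and 2194.8 in the salt 5 h cells and 3077.8, 2926.6 and 3157.2 in the salt 24 h cells. Replicate 2 was the lowest in each group, and all 5 h arrays were below their paired controls. The 5 h difference was -0.69 ± 0.27 (adjusted p = 0.53, with block 0.031).

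At 5 h the 5 genes that were called lower at 24 h, with HYOU1 and HSPA5, overlapped the control cells. The difference at 5 h was -0.029 ± 0.094 for MANF, 0.18 ± 0.19 for SDF2L1, 0.17 ± 0.18 for HYOU1 and 0.11 ± 0.12 for CANX. For HSPA5 it was 0.02 ± 0.16, for SSR3 -0.016 ± 0.089 and for SEC61G 0.07 ± 0.085. None of these 7 was called at 5 h in either fit. DNAJB9, lower at 24 h with the block, differed by -0.25 ± 0.32 at 5 h, and its difference between 24 h and 5 h, -0.30 ± 0.32, was not called in either fit (adjusted p = 0.61 and 0.1). SYVN1, the ligase HRD1 of the degradation complex, differed by -0.62 ± 0.26 without overlap and was not called (adjusted p = 0.62, with block 0.068).

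**Figure D4:**
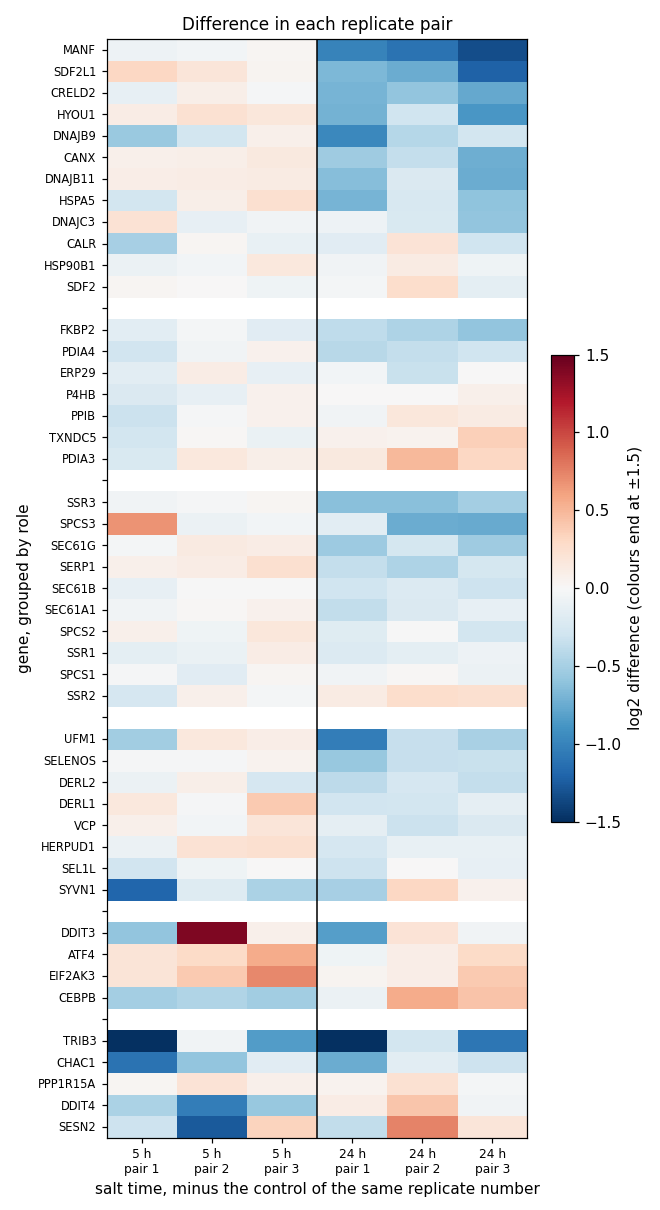
Log2 difference between each salt array and the control array of the same replicate number (columns, 3 pairs at 5 h and 3 at 24 h) for the 46 genes (rows, grouped by role); blue is lower and red higher in salt, and colours end at 1.5 either way. The right columns are blue in 3 of 3 pairs for 27 genes, and the left columns for 7.

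The change between the time points was tested directly as salt 24 h minus salt 5 h. Without the block 9 of the 46 genes (19.6%) fell and 0 rose, where 14.2% of all probe sets were called, 6.15% lower and 8.01% higher. At an unadjusted p under 0.05 there were 15 genes lower and 3 higher. The 9 were the 5 named above with HYOU1, SPCS3, CRELD2 and DNAJB11. With the block 22 (47.8%) fell and 6 (13%) rose, where 43.8% of all probe sets were called, 19.6% lower and 24.2% higher. The median difference was -0.25, and the median of all probe sets was 0.057. The 24 h arrays lay all below the 5 h arrays in 18 genes and all above in 5, against 14.3% and 18.1% of all probe sets. In 27 genes all 3 pairs were lower and in 8 all were higher, against 28.7% and 36.4%. The count of 9 came to 5 without salt 5 h replicate 1 or 3 or salt 24 h replicate 3, and to 4 without salt 24 h replicate 1. Over all probe sets, leaving out 1 array gave 370 to 1075 lower and 484 to 1354 higher, in place of 1108 and 1443, with the lowest counts without salt 5 h replicate 1.

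MANF averaged 2489.7 ± 213.5 at 24 h, against 5410.7 ± 371.4 at 5 h (difference -1.12 ± 0.094, adjusted p = 0.0015). SDF2L1 averaged 363.4 ± 29 at 24 h, against 776.0 ± 123.0 at 5 h, a ratio of 0.468 (difference -1.05 ± 0.19, adjusted p = 0.011). The HSPA5 partner HYOU1 differed by -0.80 ± 0.18 (adjusted p = 0.021). Its other 4 probe sets, all with a mean intensity of 24.6 or less, differed by -0.33 to 0.085 and were not called, and the mean of its probe sets differed by -0.29 (adjusted p = 0.3). HSPA5 itself differed by -0.53 ± 0.16 (adjusted p = 0.053, with block 0.0038).

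CANX differed by -0.64 ± 0.12, DNAJB11 by -0.64 ± 0.17 and CRELD2 by -0.67 ± 0.19 (adjusted p = 0.013, 0.039 and 0.049). SPCS3, SSR3 and SEC61G differed by -0.73 ± 0.16, -0.57 ± 0.089 and -0.52 ± 0.085 (adjusted p = 0.022, 0.0063 and 0.0076). MANF, SSR3 and SEC61G kept the call in each of the 9 fits that leave out 1 array. CRELD2 and DNAJB11 kept it in 1 of 9, without control replicate 1, and their highest adjusted p was 0.17 and 0.15, both without 5 h replicate 1. These fits had no block. On all 9 arrays with the block, the limma adjusted p was 0.00037 for CRELD2 and 0.0029 for DNAJB11. With the mean of all probe sets of a gene the call was also lost for CANX (-0.43, adjusted p = 0.27), SSR3 (-0.41, 0.13) and SPCS3 (-0.45, 0.1). SPCS3 lost it without 5 h replicate 1 or 3 or any 24 h replicate (up to 0.093), HYOU1 without 5 h replicate 2 or 3 or 24 h replicate 1 or 3 (up to 0.083), CANX without 24 h replicate 1 (0.056), and SDF2L1 without 5 h replicate 1 (0.051).

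With the block 13% of the 46 genes rose between 5 h and 24 h, a smaller share than the 24.2% of all probe sets. They included DDIT4 and CEBPB, whose 5 h arrays each lay below the control array of their number. DDIT4 averaged 3053.9 ± 117.1 at 24 h, against 1766.7 ± 620.0 at 5 h, without overlap (difference 0.85 ± 0.27, adjusted p = 0.065, with block 0.0019). CEBPB, a transcription factor of inflammatory and stress responses, read 294.1, 174.0 and 228.2 in the control cells, 202.4, 123.3 and 154.4 in the salt 5 h cells and 275.6, 263.1 and 313.0 in the salt 24 h cells. Its 24 h arrays did not overlap its 5 h arrays, and the difference between the times was 0.79 ± 0.23 (adjusted p = 0.056, with block 0.002).

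SYVN1 differed by 0.58 ± 0.26, SSR2 by 0.28 ± 0.11, PDIA3 by 0.31 ± 0.35 and TXNDC5, a disulfide isomerase, by 0.27 ± 0.22, all called with the block only (adjusted p = 0.021, 0.017, 0.015 and 0.044). The other probe set of TXNDC5, with a mean intensity of 945.5, differed by 0.19 and was not called (adjusted p = 0.89, with block 0.15). Lower at 24 h with the block only were also ATF4 at -0.24 ± 0.17, HERPUD1 at -0.28 ± 0.10 and DERL1 at -0.41 ± 0.22 (adjusted p = 0.046, 0.025 and 0.0082). SERP1 at -0.51 ± 0.15, SELENOS at -0.42 ± 0.12 and VCP at -0.30 ± 0.10 belonged there too, with FKBP2, PDIA4, SEC61B, SEC61A1, UFM1 and DERL2 between -0.54 and -0.22. The other probe set of UFM1, nearly as bright at a mean of 299.1 against 303.7, was called without the block too (-0.73, adjusted p = 0.039).

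The median replicate spread of these genes was below that of all probe sets. The 46 were read on the brightest probe set of each gene, while all probe sets hold dimmer ones too. The part of intensity in this spread, and in the shares of calls set beside all probe sets, was not tested. The median SD of the 46 genes on the log2 scale was 0.18 at 24 h, 0.17 at 5 h and 0.22 in control cells, and the median over all probe sets was 0.26 in each group. The lowest SD at 24 h was 0.019, for SSR1, and the highest in any group after SESN2 was 0.89, for TRIB3 in control cells.

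Other genes of the pathway, on 6 lists without the 46, numbered 173, of which 137 were matched and 134 passed the filter. At 24 h against control 3 rose and 10 fell without the block, and 27 and 36 with it, and their median difference was -0.082. These are 2.24% higher and 7.46% lower, against 4.28% and 4.32% of all probe sets, and with the block 20.1% and 26.9%, against 18.3% and 17.5%. The 10 came to between 3 and 5 without any 1 of the control replicates, salt 24 h replicate 1 or 2 or salt 5 h replicate 1, and the 3 to 1 without control replicate 2 or 3 or salt 24 h replicate 1. Among 28 further targets of the integrated stress response, 6 fell, SLC7A5 (-2.12), PHGDH (-1.19), PSAT1 (-1.15), MTHFD2 (-1.14), EPRS1 (-0.98) and GARS1 (-0.47), with adjusted p = 0.005 to 0.04. They encode an amino acid transporter, enzymes of serine and one-carbon synthesis, and aminoacyl-tRNA synthetases. NUPR1 (3.20) and ATF3 (1.99), stress-induced regulators of transcription, rose (adjusted p = 0.0069 and 0.015). Of this list 21.4% were called lower and 7.14% higher without the block. Its median was -0.36, and it holds the largest fall and the largest rise of the 6 lists.

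Of 18 genes of N-glycosylation and glucose trimming, ALG14, a subunit of the enzyme that adds the second sugar of the glycan precursor, fell by 0.85, and OSTC, a subunit of the oligosaccharyltransferase, by 0.66 (adjusted p = 0.0067 and 0.02). Without the block 11.1% of this list were called lower and 0% higher, against 4.32% and 4.28% of all probe sets. With the block 33.3% were lower and 22.2% higher, against 17.5% and 18.3%, with DPAGT1 (0.56) and GANAB (0.37) among those that rose. Of 24 further translocation genes, GET4, of the tail-anchored protein pathway, fell by 0.83 (adjusted p = 0.034), with EMC6 at -0.59 and EMC3 at 0.50 and SRP14 at 0.26 called with the block. GET4 is 4.17% of that list, near the 4.32% of all probe sets called lower. With the block 20.8% of the list were lower and 8.33% higher. Of 23 further degradation genes, the conjugating enzyme UBE2J2 fell by 0.48 and JKAMP rose by 0.50 (adjusted p = 0.046 and 0.04). These are 4.35% lower and 4.35% higher, near the 4.32% and 4.28% of all probe sets. AUP1 at -0.51, ERLIN1 at -0.48, OS9 at 0.61 and UBXN6 at 0.58 were called with the block. With it 21.7% of the list were lower and 30.4% higher, against 17.5% and 18.3% of all probe sets.

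Of 24 further ER folding genes, 0 were called by limma without the block (3 lower and 1 higher at an unadjusted p under 0.05), while with it 4 fell and 5 rose. These are 16.7% and 20.8%, near the 17.5% and 18.3% of all probe sets. SERPINH1, the collagen chaperone HSP47, differed by -0.81 (adjusted p = 0.054, with block 0.00067) and FKBP11 by -0.62, against FKBP7 at 0.56 and TMX4 at 0.42. Of 17 further sensors and regulators, 0 were called by limma without the block (1 lower and 3 higher at an unadjusted p under 0.05). With it 3 fell (17.6%) and 4 rose (23.5%), against 17.5% and 18.3% of all probe sets, among them BAK1 (-0.997) and PTPN1 (-0.69), which fell, and BAX (0.59) and NFYB (0.59), which rose. The BCL2-family proteins BAK1 and BAX act at the ER as well as at mitochondria, and NFYB is part of the factor that binds beside ATF6 at ER stress elements.

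**Figure D5:**
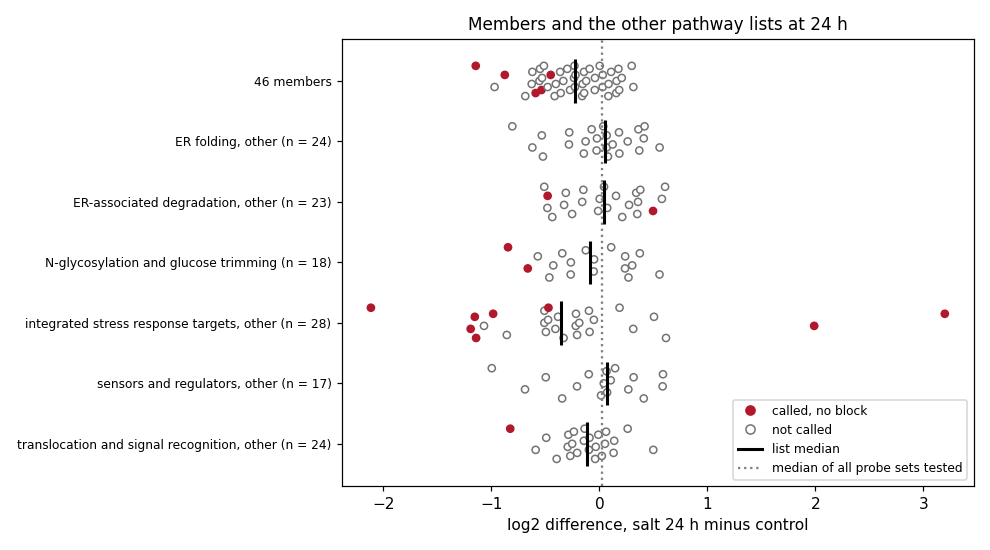
Log2 difference, salt 24 h minus control (x axis), of each of the 46 genes and of the 134 other pathway genes in 6 lists (rows); red points were called without the block, black bars are list medians, and the dotted line is the median of all probe sets tested, 0.023. The bar of the 46 genes lies at -0.23 and that of the integrated stress response targets at -0.36, with SLC7A5 at -2.12 and NUPR1 at 3.20 at its ends.

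At 5 h SLC38A2, an amino acid transporter, was the one other pathway gene called, at 0.88 (adjusted p = 0.03). That call was lost without any 1 of the control replicates, salt 5 h replicate 1 or 3 or salt 24 h replicate 1 or 2. With the block NUPR1 (1.74), ATF3 (1.76) and YY1 (0.62) also rose and the mannosyltransferase ALG2 (-0.96) fell. The 1 call without the block is 0.746% of the 134 genes, against 0.233% of all probe sets called higher. With the block 2.99% were higher and 0.746% lower, against 2.45% and 3.41% of all probe sets. Between 24 h and 5 h, 12 of these genes (8.96%) fell and 3 (2.24%) rose without the block, against 6.15% and 8.01% of all probe sets. The 12 came to 5 without salt 5 h replicate 1 or salt 24 h replicate 1 or 2, and the 3 to 0 without salt 5 h replicate 1 or 2 or salt 24 h replicate 3 and to 1 without control replicate 3 or salt 24 h replicate 1 or 2. SERPINH1 (-0.81), UBE2J2 (-0.75), ALG14 (-0.87), OSTC (-0.69), GET4 (-0.82) and SLC38A2 (-0.56) fell, as did the 6 integrated stress response targets that were lower than control. The 3 that rose were JKAMP (0.59), NFYA (0.61) and MARCHF6 (0.50).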

How the data were processed

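RNA of 9 cultures of bovine nucleus pulposus cells was measured on 1-colour Affymetrix arrays. The authors deposited linear intensities per probe set. The submitters' processing notes name PLIER and Affymetrix Expression Console. Not given in the sources used here are their settings, their versions and any normalization between arrays. Of 24128 probe sets, 112 manufacturer's controls were set aside. Of the other 24016, 13292 carry 1 gene symbol in the platform annotation, 86 several and 10638 none; 13263 had their gene number in a current table of genes, which changed 0 symbols. Probe sets with several symbols name no gene here.

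The deposited intensities were transformed to log2(intensity + 16), which understates changes of dim probe sets, and no further normalization was applied. Dim probe sets, with a mean under the 25th percentile of 5.05 on the log2 scale, were dropped. In limma 3.58.1 (R 4.3.3), lmFit gave group means over the 9 arrays and eBayes with trend the tests, with Benjamini-Hochberg adjustment over the 18012 probe sets within each of 3 comparisons. The alternative fit takes the replicate number as a block. The numbers come from the sample titles, and arrays of the same number deviated together from their group means (r = 0.56 to 0.90 in 9 pairs, against -0.78 to 0.55 between other numbers). The fit was tested on simulated data. Probe sets near the highest intensity of an array (13521.7 to 15435.1) may be compressed, and the number of arrays limits the precision.

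Members, lists, markers, tests and alternatives were chosen with earlier results of these data known. Named were members called in any comparison in either fit, a set of sensors and key outputs whatever their values, other pathway genes that were called, and up to 2 per list and direction among those called with the block. Each listed gene was also looked up under an older symbol. No promoter or protein sequences were used here.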

Additional observations from a re-analysis of the deposited data

Results flagged for a closer look

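For 9 genes the difference between salt and control was not the same at the 2 time points, by the limma test of salt 24 h minus salt 5 h itself, in which the shared control arrays cancel. The log2 value of this difference was -1.116 for MANF, -1.053 for SDF2L1, -0.7973 for HYOU1 and -0.7282 for SPCS3. It was -0.6691 for CRELD2, -0.645 for CANX, -0.642 for DNAJB11, -0.5748 for SSR3 and -0.521 for SEC61G. In each of the 9, all 3 salt 24 h arrays lay below all 3 salt 5 h arrays. The same held for 14.3% of all probe sets, and in 18.1% all lay above. The 9 were picked by the test on these same arrays, so the separation adds no support. Over all probe sets, that test called 6.15% lower and 8.01% higher. No group had enough arrays for a test of single arrays that stand apart.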

How the results depend on the processing

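With the replicate block, the counts of the 46 genes were 1 higher and 1 lower at 5 h, 1 higher and 21 lower at 24 h, and 6 higher and 22 lower between 24 h and 5 h. The other pathway genes came to 4 and 1, 27 and 36, and 29 and 35, and all probe sets to 442 and 614, 3302 and 3150, and 4353 and 3531. The fall of the 46 genes at 24 h (5 genes) became 2 with the 6 arrays compared alone or with the arrays numbered 1 and 2 alone, and 3 with the mean of all probe sets of a gene or without the intensity trend. Between 24 h and 5 h it was 5 in place of 9 with the mean of all probe sets, and 1 gene was higher in place of 0 with a filter at the median or with the arrays numbered 1 and 2, which were chosen after seeing the data. The other pathway genes higher at 5 h (1) became 0 with median centring, with 6 arrays, with the mean of probe sets and without the trend. Those lower at 24 h became 5 with 6 arrays, and those higher between 24 h and 5 h (3) became 1 without a filter or with 6 arrays, 0 with median centring and 5 with quantile normalization, while those lower (12) became 20 with median centring. Leaving out 1 array at a time gave, for the 46 genes, 0 to 0 higher and 0 to 0 lower at 5 h, 0 to 0 and 2 to 6 at 24 h, and 0 to 1 and 4 to 9 between the times, and for the other pathway genes 0 to 1 and 0 to 0, 1 to 4 and 3 to 10, and 0 to 3 and 5 to 11. No result changed sign while called. All probe sets at 5 h came to 7 higher and 6 lower with 6 arrays, in place of 42 and 45, and at 24 h to 406 and 386, in place of 771 and 779. With median centring they were 34 and 23, 503 and 827, and 806 and 1608, against 1443 and 1108 between the times without it. MANF was called at 24 h under 11 of 11 alternatives and in 9 of 9 fits without 1 array, and SSR3 in 10 of 11 and 9 of 9, not with the mean of its probe sets. The cause of these shifts was not tested, except that fewer arrays leave fewer degrees of freedom.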
